A study of Mus musculus with 2 samples.

Results

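The genes described here encode 9 surface proteins with which the Lin-c-kit+Sca1+ (LSK) fraction of mouse bone marrow is subdivided: Kit, Cd34, Tek, Slamf1, Cd48, Abcg2, Procr, Cd93 and Cd27. They were read from all probe sets annotated to these genes on an Affymetrix mouse expression array. Of the 9 genes, 8 had a probe set and Slamf1 was not analysed here. The 8 genes had 10 probe sets, out of 12422 probe sets besides the controls and 8251 named genes in all. The data are 2 arrays of 1 group, called sample 1 and sample 2. Each holds RNA of bone marrow cells sorted as lineage-negative, c-kit-positive and Sca1-positive, amplified in 2 rounds. No treatment or second group is named. Strain, age, genotype and the number of animals are not given in the sources used here, so the spread between the samples may be technical. The sort enriches for stem cells but also holds multipotent progenitors, and on an array fewer cells of a type and less RNA per cell cannot be told apart.

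The LSK gate collects the stem cells of adult blood formation together with the multipotent progenitors they give rise to, and further surface proteins separate these. Long-term repopulating stem cells of the adult mouse are known to carry CD150 (Slamf1) and EPCR (Procr), to export dyes through Abcg2, and to show little or no CD34 and CD48. Progenitors that have left this state gain CD34, CD48 and CD27. Kit is needed for stem cell maintenance, and Tek (Tie2) binds angiopoietins that act on the stem cell pool. Protein on the surface and RNA in the cell need not follow each other, and only RNA was measured here.

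RefSeq (GRCm38.p6) promoter sequences were matched to 8 of the 9 genes. The 250 bases before the start site are shown, 5′ to 3′, for Kit, on which the cells were sorted, for Cd48 and Cd27, the 2 members with the widest gap between the samples, and for Procr, the member with the widest gap in the opposite direction. Capitals mark matches, on either strand, to the letters GATAA, which GATA factors bind, the letters TGTGGT of Runx factors, the letters AGGAAG of Ets factors, or CAGCTG, which is an E-box. No matches overlapped in the 4 sequences.
Kit, chr5:75574737-75574986, plus strand: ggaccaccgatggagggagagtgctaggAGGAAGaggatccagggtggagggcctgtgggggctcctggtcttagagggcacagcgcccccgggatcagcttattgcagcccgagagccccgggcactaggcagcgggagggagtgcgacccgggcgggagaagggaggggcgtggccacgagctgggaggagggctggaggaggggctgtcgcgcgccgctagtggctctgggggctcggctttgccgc
Cd48, chr1:171681742-171681991, plus strand: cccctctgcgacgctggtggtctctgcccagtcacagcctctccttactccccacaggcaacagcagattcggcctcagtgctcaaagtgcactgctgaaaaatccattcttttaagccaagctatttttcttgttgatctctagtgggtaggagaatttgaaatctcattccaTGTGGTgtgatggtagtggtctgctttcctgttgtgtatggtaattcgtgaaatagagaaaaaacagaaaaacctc
Cd27, chr6:125237028-125237277, minus strand: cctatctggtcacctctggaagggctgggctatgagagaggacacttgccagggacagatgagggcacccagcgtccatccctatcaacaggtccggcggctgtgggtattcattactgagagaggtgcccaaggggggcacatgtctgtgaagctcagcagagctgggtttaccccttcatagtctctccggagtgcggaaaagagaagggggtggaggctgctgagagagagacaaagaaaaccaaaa
Procr, chr2:155750967-155751216, plus strand: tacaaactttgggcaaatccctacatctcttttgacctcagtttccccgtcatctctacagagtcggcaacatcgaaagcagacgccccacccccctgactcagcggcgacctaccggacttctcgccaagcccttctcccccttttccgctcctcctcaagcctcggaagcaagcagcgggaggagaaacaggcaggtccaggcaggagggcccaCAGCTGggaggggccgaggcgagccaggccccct
The Kit window held the Ets letters, the Cd48 window the Runx letters and the Procr window the E-box, while the Cd27 window held none of the 4. Over the 11 start sites of the 8 matched genes, the Ets letters occurred at 7, belonging to Kit, Cd34, Slamf1 and Abcg2. Kit and Abcg2 have several start sites each, so these are not 7 independent windows. Of all 32851 windows of this length 29.5% held them. The GATA, Runx and E-box letters occurred at 2 of the 11 start sites each, against 22.6%, 14% and 13% of all windows. A match is a description of the letters and the arrays hold no binding data.

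Signals are given as quantile-normalised intensities in arbitrary units. The level taken as background was the 90th percentile of 15 probe sets for bacterial genes, 12.1 in sample 1 and 8.92 in sample 2. A stricter background was set by 44 probe sets for 34 genes of other organs such as liver, brain, muscle, skin and testis, whose 90th percentiles were 55.4 and 27.1. Probe sets bind with different strength, so each gene is read against these levels and between the samples, not against another gene. Of the 8 measured surface marker genes, 7 (87.5%) were above the bacterial level in both samples, where 57% of all 8251 genes were. Against the other-organ level 4 of 8 (50%) remained, Cd48, Abcg2, Cd93 and Cd27, where 19.5% of all genes did. Members and levels were chosen with results of these data known, so these shares describe the arrays.

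**Figure D1:**
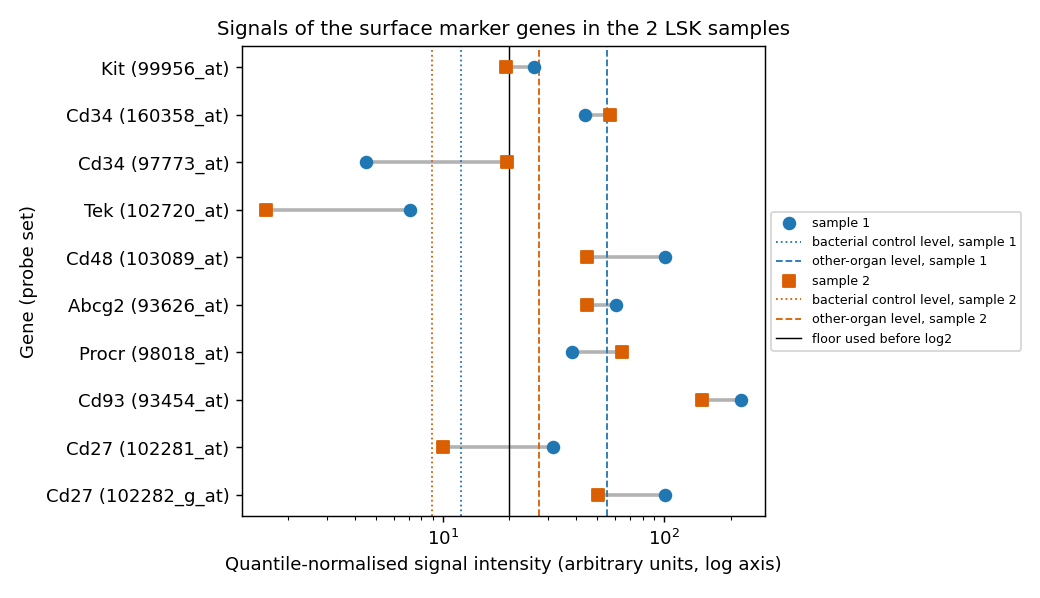
Quantile-normalised signal (log axis, arbitrary units) of the 10 probe sets of the surface marker genes, with circles for sample 1 and squares for sample 2. Dotted lines mark the bacterial control levels of 12.1 and 8.92, dashed lines the other-organ levels of 55.4 and 27.1, and the black line the floor of 20; rows are different probe sets and cannot be ranked against each other. Cd93 lies right of all lines in both samples and Tek left of the bacterial control level in both.

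Among the receptor tyrosine kinases, the gene of the sorting antigen itself gave a weak signal. Kit, the receptor for stem cell factor, had 25.8 in sample 1 and 19.3 in sample 2 by its only probe set, 99956_at. These were 2.14 and 2.17 times the bacterial level, but in each sample 7 of the 44 other-organ probe sets were at least as high. The value in sample 2 lay under 20, the floor below which signals were set before taking log2, so Kit was at least 1.29-fold higher in sample 1. Tek, the angiopoietin receptor of endothelial and stem cells, had 7.13 and 1.58, below the bacterial level in both samples. Of the 44 other-organ probe sets, 19 in sample 1 and 41 in sample 2 were at least as high as Tek. Tek was therefore not detectable on these arrays by its only probe set, 102720_at, which does not show that its RNA was absent.

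Procr, Abcg2 and Cd93, which are used to enrich for stem cells and early progenitors, were above the bacterial level in both samples. Procr, the endothelial protein C receptor, had 38.6 in sample 1 and 64.6 in sample 2 by 98018_at, or a mean log2 signal of 5.64 ± 0.53 (SD, n = 2). It was 1.67-fold higher in sample 2 and passed the other-organ level in that sample only. Abcg2, the efflux pump behind the dye-excluding side population, had 60.8 and 45.0 by 93626_at (mean log2 signal 5.71 ± 0.31, SD, n = 2), each 5.04 times the bacterial level of its sample. It was 1.35-fold higher in sample 1 and above the other-organ level in both. Cd93, the AA4.1 antigen of fetal stem cells and early B cell progenitors, had 223 and 148 by 93454_at (mean log2 signal 7.51 ± 0.42, SD, n = 2). These were 18.5 and 16.6 times the bacterial level, and of the 44 other-organ probe sets 0 and 1 were at least as high. Cd93 was 1.50-fold higher in sample 1.

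The genes of antigens gained by progenitors were also detected, with stronger signals in sample 1 for Cd48 and Cd27. Cd48, a SLAM family protein and counter-receptor of CD244, had 101 in sample 1 and 44.9 in sample 2 by 103089_at (mean log2 signal 6.07 ± 0.83, SD, n = 2). It was 2.25-fold higher in sample 1. Cd27, a receptor of the tumour necrosis factor receptor family, had 102 and 50.2 by 102282_g_at (mean log2 signal 6.16 ± 0.72, SD, n = 2) and was 2.02-fold higher in sample 1. Its other probe set, 102281_at, had 31.7 and 10.1 and was at least 1.58-fold higher in sample 1. Both Cd27 probe sets were above the bacterial level in both samples and lay in the same direction, although in sample 2 102281_at was only 1.13 times that level.

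Cd34, the sialomucin that separates short-term from long-term repopulating cells, depended on the probe set. By 160358_at it had 43.9 and 57.2 (mean log2 signal 5.65 ± 0.27, SD, n = 2) and was 1.30-fold higher in sample 2. By 97773_at it had 4.52 and 19.6, below the bacterial level in sample 1 and 2.20 times it in sample 2. The second lay under the floor of 20 in both samples and gives neither a fold nor a direction. Cd34 and Cd27 were the 2 members with more than 1 probe set. With all probe sets of a gene required above the bacterial level, Cd34 dropped out and 6 of 8 genes passed, where 44.9% of all genes did.

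Differences between the samples were then set beside those of all genes. Of the 7 detected surface marker genes, 5 (Kit, Cd48, Abcg2, Cd93 and Cd27) were higher in sample 1 and 2 (Cd34 and Procr) higher in sample 2. The median of log2 signal in sample 2 minus log2 signal in sample 1 was -0.43, or 1.35-fold higher in sample 1. Over the 4707 genes above the bacterial level the median was 0, with lower signals in sample 2 for 2221 genes, higher ones for 2046 and the floor in both for 440. Cd48 and Cd27, 2 of the 7, were 2-fold or more higher in sample 1, as were 11% of the 4707 genes. Cd27 was at -0.97 on the log2 scale with median-centring and -0.84 with the mean of its probe sets, short of 2-fold, and with an offset of 32 in place of the floor both genes were (-0.70 for Cd27 and -0.79 for Cd48). Of the 7, 0 were 2-fold or more higher in sample 2, against 9.62% of the 4707, and 20.7% of the 4707 were that far apart in either direction. Over the 6118 probe sets (49.3% of 12422) above the bacterial level the SD between the samples was 0.58 on the log2 scale. Signals under the floor of 20 counted as 20 here, which narrows the differences of weak probe sets, that of Kit among them. Of the 6118 probe sets, 85.7% differed by less than Cd48, 80.8% by less than Cd27 (102282_g_at), 69.5% by less than Procr and 44.7% by less than Kit. These differences have no test, since the design holds 1 group of 2 samples.

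**Figure D2:**
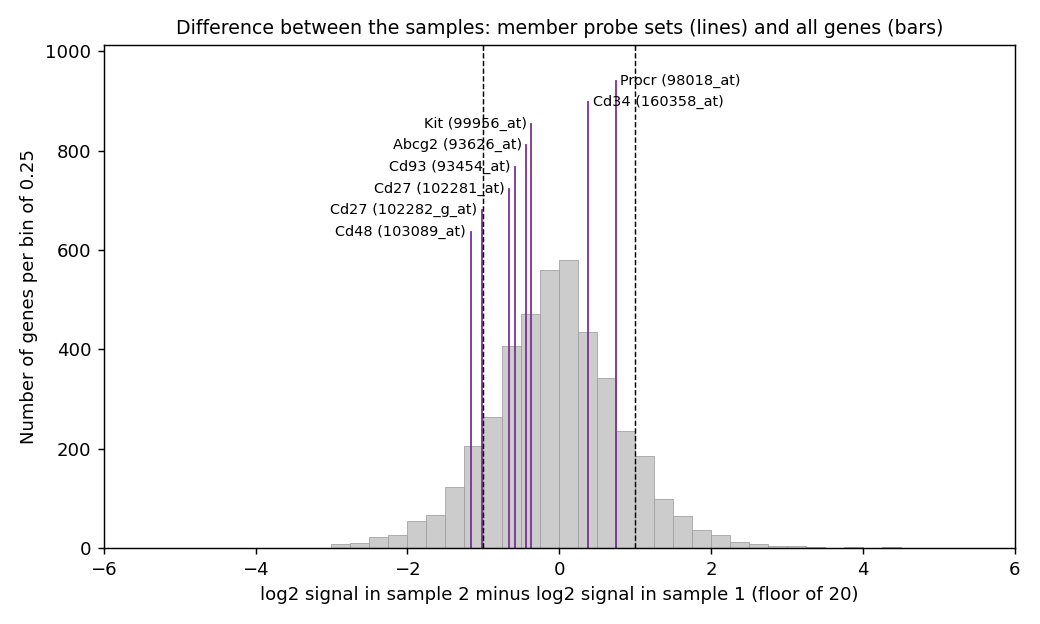
Purple lines give log2 signal in sample 2 minus log2 signal in sample 1 for the 8 member probe sets past the bacterial level of each sample. Grey bars count the other genes and the members together per bin of 0.25 for the 4267 genes not at the floor in both samples; dashed lines mark 2-fold. Cd48 and one probe set of Cd27 lie just left of the 2-fold line and the rest lie inside both lines.

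Of 11 measured genes for ligands and partners of the surface proteins 4 (36.4%) were above the bacterial level in both samples, Angpt1, Proc, F2r and Tie1. The ligand genes of Kit and CD27 were not among them. The stem cell factor gene Kitl had 7.32 and 1.11, below the level in both samples, and the CD27 ligand gene Cd70 had 26.7 and 6.93, above it in sample 1 only. Of the Tek ligands, Angpt1 had 17.6 and 28.4, and Angpt2 had 7.41 and 6.48. Tie1, the partner receptor of Tek, had 34.2 and 175 by 161184_f_at, 5.12-fold higher in sample 2, but 2.78 and 4.70 by 99936_at. The CD48 counter-receptor genes Cd244a (9.05 and 32.9) and Cd2 (3.85 and 3.09) were not above the level in both samples. On the Procr side, the protein C gene Proc had 21.1 and 23.1 and the thrombin receptor gene F2r, which activated protein C can cleave, had 332 and 209 by 95474_at. The other probe sets of F2r, 92267_at with 39.1 and 7.61 and 95313_at with 10.9 and 3.75, were not above the level in both samples, nor was that of Proc, with 21.0 and 6.72. The thrombomodulin gene Thbd had 18.5 and 4.18, and the Tek phosphatase gene Ptprb had 1.08 and 2.52.

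**Figure D3:**
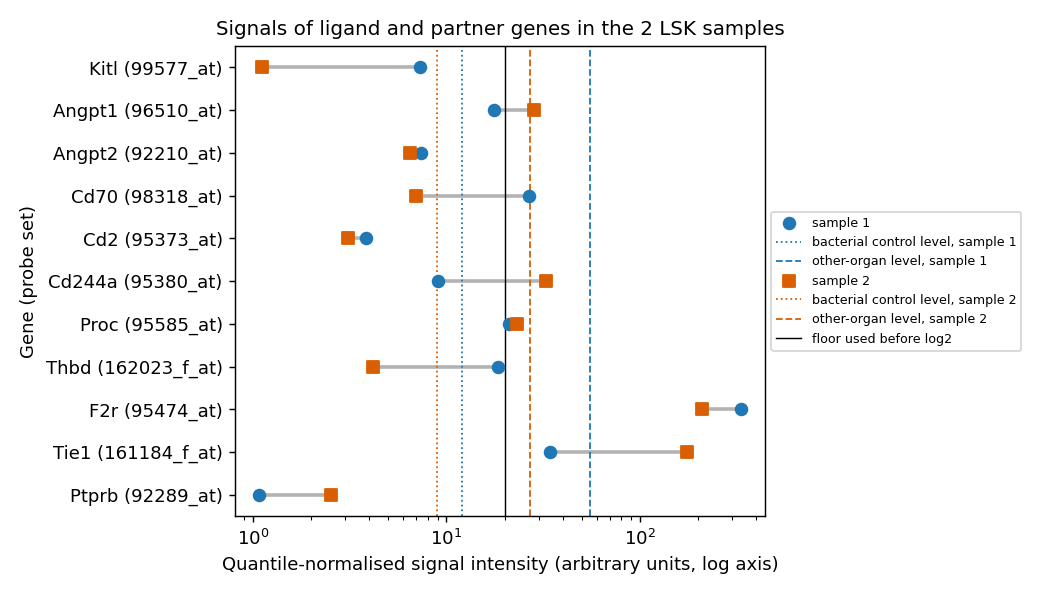
Quantile-normalised signal (log axis, arbitrary units) of the 11 measured ligand and partner genes, each by its strongest probe set on the log2 scale, with symbols and lines as in the plot of the surface marker signals. F2r is the only gene right of both other-organ levels in both samples, and Kitl, Angpt2, Cd2 and Ptprb lie left of the bacterial control level in both.

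Proteins that carry the receptors' signals inside the cell were counted next. Of 25 measured genes of Kit and Tek signalling, 18 (72.0%) were above the bacterial level and 2 (8%) above the other-organ level. Those 2 were the transcription factor gene Stat5a (106 and 144) and the forkhead gene Foxo3 (112 and 76.3). The kinase gene Akt1, below the other-organ level in sample 1, had 44.4 and 66.4. Inpp5d, which encodes the phosphatase SHIP1 that limits Kit signals, had 24.9 and 112, 4.50-fold higher in sample 2, but 27.5 and 39.3 by another probe set. Of 6 measured genes of SLAM and CD27 signalling 3 were above the bacterial level. They were the adaptor gene Traf2 (101 and 82.4), Siva1, whose product binds the CD27 tail (77.6 and 50.2), and the kinase gene Fyn (14.8 and 55.3). Sh2d1a, the SLAM-associated adaptor SAP of T and NK cells, had 1.73 and 2.80.

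Other genes in use for gating and other genes of the ABC family, to which Abcg2 belongs, were read the same way. Of 24 measured genes for other gating proteins 16 (66.7%) were above the bacterial level and 6 (25%) above the other-organ level. Their median difference of 0.29 had the opposite sign to that of the surface markers. Of the 16, 10 were higher in sample 2, as were 2046 of all 4707 genes above the bacterial level. Cd47, the antigen that restrains phagocytosis, had 1178 and 2667 by 103611_at. By 95020_at it had 63.2 and 41.0, the opposite direction. The endoglin gene Eng had 419 and 1700, and the Flt3 gene of lymphoid-primed progenitors 137 and 322. On chromosome 1 the genes Cd244a, Ly9, Slamf7, Cd48, Slamf1, Cd84 and Slamf6 neighbour each other, of which Slamf7, Slamf1, Cd84 and Slamf6 were not analysed here. Of the others Ly9, at 31.3 and 16.1, was above the bacterial level in both samples and, as Cd48, higher in sample 1, whereas Cd244a was higher in sample 2. Of 17 other ABC family genes, not all of which encode transporters, 8 (47.1%) were above the bacterial level. Of the 8, 7 were higher in sample 1, as were 2221 of all 4707 genes above that level. The phosphatidylcholine transporter gene Abcb4 had 248 and 214, Abcf1 175 and 132, and the sterol transporter gene Abcg1 82.4 and 173. The drug pump genes Abcb1a (4.22 and 1.50) and Abcc1 (0.726 and 3.66) were below the bacterial level in both samples, and Abcb1b, at 3.23 and 8.93, in sample 1. Other genes of the same subfamily as Abcc1 were stronger. Abcc5, at 50.2 and 32.3, was above the level in both samples, and Abcc3, at 11.5 and 44.8, in sample 2 only.

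**Figure D4:**
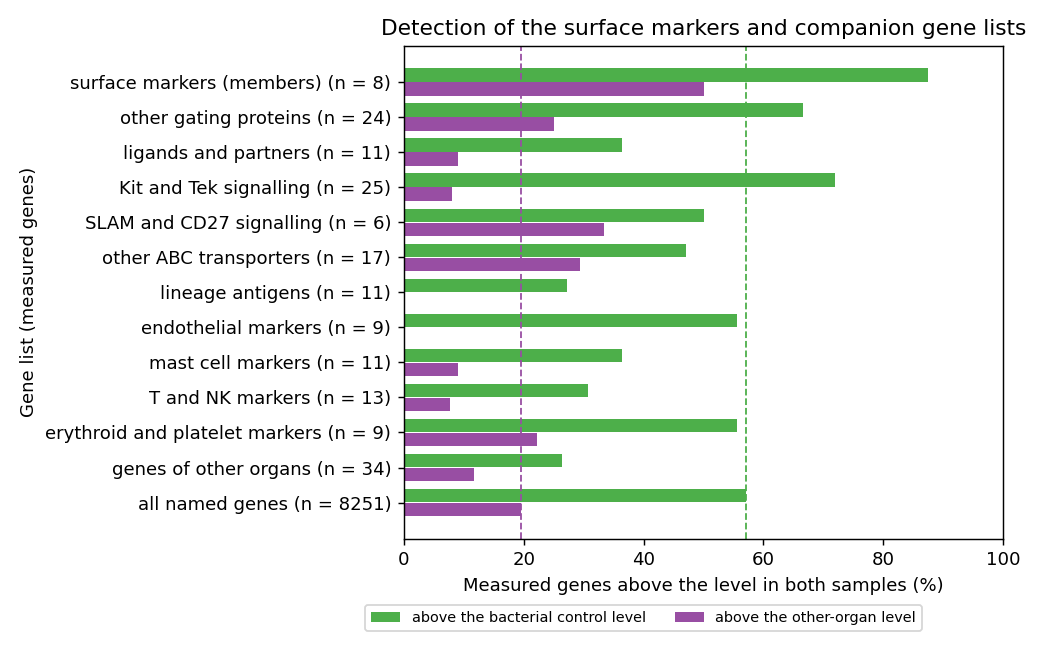
Percent of the measured genes of each list above the bacterial control level (green) and above the other-organ level (purple) in both samples, with dashed lines at the shares of all 8251 named genes, 57% and 19.5%. The surface marker bars reach 87.5% and 50%. The lineage antigen bar reaches 27.3% at the bacterial level and 0 at the other-organ level. The list named other ABC transporters also holds ABC family genes that do not encode transporters.

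Several surface marker genes are also expressed by other blood and vessel cells, so markers of those cells were measured beside them. Each is given by its strongest probe set. Of all 8251 genes 57% passed the bacterial level, a share that none of these marker lists exceeded. Of the 29 genes of all lists besides the surface markers that passed the bacterial level and had several probe sets, 5 passed it with every probe set (Cd47, Flt3, Inpp5d, Pik3ca and Stat5a). Among the lineage antigens 11 genes were measured, of which 3 passed the bacterial level and 0 the other-organ level. The 3 were Ms4a1 (28.2 and 43.5), Cd79a (32.8 and 31.2) and Ly6g (14.1 and 9.26). Ly6g lay just past the bacterial levels of 12.1 and 8.92. Another Ms4a1 probe set, with 1.94 and 22.9, did not pass in sample 1. T and NK cells also carry CD27, CD48 and SLAM proteins. Of 13 measured T and NK genes 4 passed, among them Lat (63.6 and 51.8), Prf1 (16.8 and 32.3) and Gzmb (24.7 and 25.3). The summed signal was 176 in sample 1 and 183 in sample 2, and Cd3d, Cd3e and Cd3g were below the level in both samples. Such sums add probe sets of different strength, those below background included, and do not measure the amount of a cell type. Endothelial cells also express Tek, Procr, Cd34 and Cd93. Of 9 measured endothelial genes 5 passed, among them Tie1, Emcn (36.1 and 52.5) and Vwf (33.0 and 53.8), and also Pecam1 (49.4 and 24.3) and Kdr (14.7 and 12.1). The junction genes Cdh5 (1.84 and 1.20) and Cldn5 (1.73 and 4.28) were below the level in both samples, as were the other probe sets of Tie1, Emcn and Vwf, at 1.40 to 6.60. The summed signal was 181 and 329, and 147 and 154 without Tie1, an alternative chosen after seeing the data. Mast cells also carry Kit. Of 11 measured mast cell and basophil genes 4 passed, among them Cpa3 (65.4 and 62.8), Tpsb2 (34.7 and 81.9) and Mcpt8 (75.2 and 19.0). Their other probe sets did not pass, with 8.54 and 2.35 for Cpa3, 5.85 and 20.3 for Tpsb2, and 16.3 and 5.27 for Mcpt8. The summed signal of the 11 genes was 274 and 229, and the IgE receptor gene Fcer1a had 6.95 and 1.76. Erythroid cells also express Abcg2. Of 9 measured erythroid and platelet genes 5 passed, the summed signal was 845 and 996, and members lay far apart in both directions, with Klf1 at 215 and 80.5, Car1 at 488 and 75.9, and Hba-a1 at 30.1 and 670. Of the 34 genes of other organs 9 passed the bacterial level, with Tnp1 of spermatids at 93.7 and 244, the lens gene Crybb2 at 88.3 and 77.1 and the pituitary gene Gh at 104 and 58.6. The other probe sets of Tnp1 (0.97 and 1.58) and Crybb2 (2.05 and 5.14) did not pass. The part of these cells in the surface marker signals was not tested. The other sorting antigen gene, Ly6a, was not analysed here.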

How the data were processed

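As deposited, each sample had a linear intensity for every probe set, and the mean intensity was 53.9 in both. The sources used here do not name the software behind them. The 2% trimmed means were 32.8 and 30.9, which differ by more than 5%, so the 2 arrays were quantile-normalised over all 12488 probe sets. Signals under 20 were set to 20 before log2, since the lowest deposited intensity was 0. This floor held 57.8% and 57.7% of the values. The number of arrays limits the precision.

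Probe sets were named from the platform annotation. Probe sets naming several genes were left out, and all 10 member probe sets matched a gene ID of GRCm38.p6. A gene passed a level if, in both samples, at least 1 of its probe sets did, the same in each. Its strongest probe set by mean log2 signal gave its value. The members and lists were chosen with earlier results of these data known. Every member probe set is named. Of each other list the rule names the 3 strongest genes above the bacterial level and the most different one with both signals above the floor, and allows any lineage antigen or partner. Sh2d1a, Ly9, the drug pump genes, Abcc3, Abcc5, Pecam1, Kdr, Cdh5, Cldn5 and Fcer1a were chosen after their values were seen. Alternatives were other background levels, other scalings, no floor, an offset of 32, no filter, the mean over probe sets and each sample alone. The normalisation was tested on simulated data, with shifts given to strong probe sets only, which the floor could hardly reach. The simulated noise was smaller than the spread between these samples. The floor, the background levels, the rule for passing, the choice of probe set and weak signals were not tested in this way. Python 3.11.15, pandas 2.3.3 and numpy 2.4.6 were used.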

Additional observations from a re-analysis of the deposited data

How the results depend on the processing

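The number of surface marker genes above background was 7 of 8 and stayed at 7 with the highest bacterial probe set as the level (53.0% of all genes) or the median one (85.4%), with the deposited and the median-centred scaling (57.0% each), and in each sample alone (lowest 7, highest 7, with 64.3% of all genes in sample 1 and 71.0% in sample 2). It was 6 with all probe sets of a gene required (44.9% of all genes), and 4 with the other-organ level (19.5%). The level is a percentile within each sample and the scalings keep the order of signals there, so they could hardly change this count. The median level and each sample alone could not lower it. At 7 of 8 the count has little room to rise. The median difference of -0.43 ranged from -0.53 with the deposited scaling to -0.27 with an offset of 32. The sign of the difference of each of the 7 detected genes was the same under all 6 alternatives for it. Having no filter, no floor or an offset could not reverse the sign of a probe set. The mean over probe sets applied only to Cd34 and Cd27. For the other genes only the deposited and median-centred scalings could have reversed it. Cd48 was short of 2-fold with the offset, at -0.79 on the log2 scale. Cd27 was short of it with the offset (-0.70), the mean over its probe sets (-0.84) and median-centring (-0.97). Without the floor Tek, below background in both samples, differed by -2.17, a value with no order. Without Tie1, an alternative chosen after seeing the data, the endothelial sums were 147 and 154 in place of 181 and 329. No paired analysis was possible because there is 1 group. Signal near background limits Kit, Tek and the weaker probe sets of Cd34 and Cd27.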
